A study of Mus musculus with 6 samples.

Results

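Immunoglobulin gene segments are the pieces from which antibody genes are assembled. Of 23521 probe sets annotated to 1 gene symbol on the array, 29 belonged to them, standing for 20 of 22180 genes. The rule that picked them uses the symbol and no measured value, and takes those of the heavy chain (Igh), kappa (Igk) and lambda (Igl) loci named variable (V), diversity (D), joining (J) or constant (C) segment. RefSeq lists 2 of the genes as C regions (9 probe sets), 17 as V segments (19 probe sets) and 1 as a J segment (1 probe set). The C regions were Ighm, which encodes the heavy chain of IgM, with 7 probe sets, and Ighg3, which encodes that of IgG3, with 2. The V segments were 3 of the heavy chain, 13 of kappa with 15 probe sets and 1 of lambda, Iglv1. The J segment was Igkj1 of kappa.

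A developing B cell cuts and joins 1 V, 1 J and, for the heavy chain, 1 D segment, so that each B cell clone transcribes its own combination in front of a constant region. Plasma cells, the secreting end stage of the lineage, hold very large amounts of immunoglobulin RNA. A population made from many B cells therefore carries a broad mixture of V segments, while a single clone carries 1 heavy and usually 1 light chain V segment. Myeloid cells do not normally assemble these loci completely, although incomplete heavy chain joins and unrearranged transcripts are known in blood progenitors.

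The samples were c-Kit+ leukemic cells sorted from the spleens of mice with end-stage leukemia, with 3 independent samples of each genotype. The tested genotype was Chd7f/f Mx1-Cre Cbfb+/56M, in which both alleles of the chromatin remodeller gene Chd7 are floxed. The control was Mx1-Cre Cbfb+/56M. Both carry Mx1-Cre, a recombinase switched on by interferon in blood cells and in other tissues, and the conditional Cbfb+/56M allele of the Cbfb-MYH11 leukemia fusion gene, and all mice received pIpC, which induces the Cre, and the mutagen ENU. The labels used here give no ages. The sort was on c-Kit, a receptor of stem cells, progenitors and mast cells, and no step against B or plasma cells is described. Each sample was put on 1 array. All levels given are log2 values after RMA, and the number of arrays limits their precision. Nothing in the labels says that each sample is 1 animal, so a p-value below sets a genotype difference against the scatter of these samples.

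Kit encodes the sorted receptor and was at 12.48, 11.69 and 11.91 in Chd7f/f leukemias and at 11.72, 12.12 and 11.68 in control leukemias, so all 6 samples carried it at a high level. Chd7 was at 5.48, 6.50 and 5.91 in Chd7f/f leukemias and at 6.17, 7.54 and 5.32 in control leukemias. The genotypes overlapped, and a single reading over the gene does not check the deletion. Control replicate 2 stood apart from the other 5 arrays in Xist, transcribed from the inactive X chromosome, at 10.08 against 3.30 to 3.88 elsewhere, and in the Y-linked gene Eif2s3y, at 4.43 against 8.72 to 9.11 elsewhere. Array medians lay between 4.72 and 4.84.

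Some immunoglobulin probe sets were bright in these c-Kit+ samples and others lay near the bottom of the scale. The median of the mean levels was 7.03 over the 29 members and 5.07 over all probe sets with 1 symbol. In the top 10% of mean levels were 3 of the 29. Ighm probe set 17284349 had a mean level above 98.4% of the probe sets with 1 symbol, and Igkv5-43 probe set 17459421 stood above 98.3%. On every array 13 of the 29 members lay at or above 5.78, the level 1 log2 unit above the mean of the array medians, and 7 lay below it on every array. The matching shares of all probe sets were not counted. Among the members 22 passed the filter on low values, a mean over the 6 arrays at or above 4.11, the 30th percentile of probe sets with 1 symbol. The 7 below it were Ighv1-47, Ighv1-54, Igkv6-14, Igkv6-23, Igkv8-19, Igkv9-124 and Ighg3 probe set 17284614, which reached at most 5.45 on any array. In bulk RNA a smaller number of cells and less RNA per cell cannot be told apart.

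**Figure D1:**
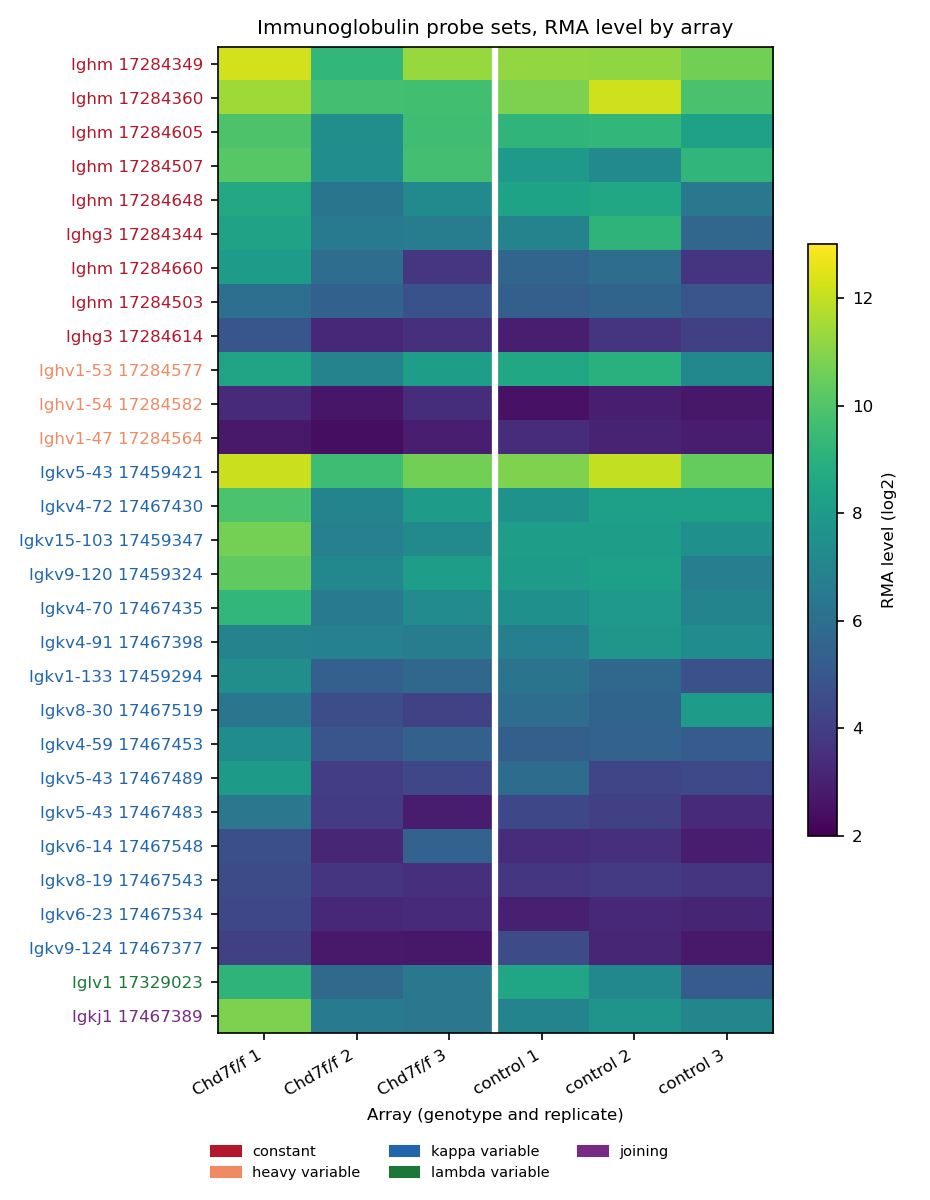
RMA level (log2, colour) of the 29 immunoglobulin probe sets (rows, gene symbol and probe set number, label colour by segment class) on the 3 Chd7f/f and 3 control arrays (columns). Chd7f/f replicate 1 holds the highest level of 20 of the 29 members and Chd7f/f replicate 2 that of none.

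The constant region gene Ighm varied between leukemias of the same genotype. Its probe set 17284349 was at 12.24, 9.30 and 11.28 in Chd7f/f leukemias and at 11.21, 11.19 and 10.68 in control leukemias. The 2 ends of that range, 2.94 log2 units apart, were both Chd7f/f leukemias, replicate 1 at the top and replicate 2 at the bottom, with all 3 controls between them. Probe set 17284605 had the same 2 ends, with 9.92, 7.44 and 9.65 in Chd7f/f and 9.21, 9.26 and 8.28 in control leukemias. Probe set 17284648 was at 8.63, 6.26 and 7.20 in Chd7f/f and at 8.40, 8.59 and 6.42 in control leukemias. There the top of the Chd7f/f leukemias was level with 2 of the controls.

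The 7 Ighm probe sets did not all rank the leukemias alike. Probe set 17284360 was at 11.42, 9.70 and 9.66 in Chd7f/f leukemias and at 10.84, 12.22 and 9.85 in control leukemias, so its highest level was in control replicate 2. Probe set 17284507 split the arrays differently, with 10.12, 7.39 and 9.72 in Chd7f/f and 7.91, 7.26 and 9.25 in control leukemias. Chd7f/f replicates 1 and 3 and control replicate 3 were high in it, and the other 3 arrays were at least 1 log2 unit lower. Probe set 17284660 was at 8.02, 5.92 and 3.76 in Chd7f/f and at 5.58, 5.91 and 3.64 in control leukemias, low in both replicates numbered 3. The dimmest, probe set 17284503, lay between 4.76 and 6.04. The annotation gives the gene and not where in it the probes lie, and V and C segments of 1 locus have near-identical relatives, so a probe set named Ighm may also register other heavy chain RNA. That was not tested.

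Ighg3 was read by a probe set of middling level, 17284344, at 8.33, 6.56 and 6.67 in Chd7f/f and at 6.91, 9.16 and 5.64 in control leukemias. Control replicate 2 was the highest and control replicate 3 the lowest, so the controls spanned the Chd7f/f values. The second Ighg3 probe set, 17284614, ran from 2.91 to 4.96 and peaked in Chd7f/f replicate 1 instead.

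Of the heavy chain variable segments, Ighv1-53 alone passed the filter. It was at 8.42, 6.92 and 8.17 in Chd7f/f leukemias and at 8.56, 8.98 and 7.12 in control leukemias, lowest again in Chd7f/f replicate 2 but highest in control replicate 2. Ighv1-47 and Ighv1-54 lay between 2.39 and 3.44 on all arrays.

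Kappa segments showed the widest contrast between single leukemias. Igkv15-103 was at 10.69, 6.79 and 7.25 in Chd7f/f and at 8.17, 8.18 and 7.52 in control leukemias. Igkv9-120 was at 10.31, 7.14 and 8.12 in Chd7f/f and at 8.02, 8.20 and 6.71 in control leukemias. In both, Chd7f/f replicate 1 stood more than 2 log2 units above every other array and the remaining Chd7f/f leukemias lay among or below the controls. Igkj1, the joining segment, was at 10.82, 6.50 and 6.36 in Chd7f/f and at 6.96, 7.67 and 7.03 in control leukemias. Its gap of 3.15 between Chd7f/f replicate 1 and the next array was the widest of any member.

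The same leukemia was on top in most other kappa segments. Igkv4-72 was at 9.88 in Chd7f/f replicate 1 and between 6.95 and 8.22 elsewhere. Igkv4-70 was at 9.27 there and between 6.53 and 7.91 elsewhere, Igkv4-59 at 7.36 against 4.89 to 5.47, and Igkv1-133 at 7.42 against 4.71 to 6.24. These 4 segments ranged over 2.47 to 2.93 log2 units across the arrays, and their control arrays alone spread less. Igkv4-91 did not follow them, at 6.91, 6.84 and 6.64 in Chd7f/f and at 6.75, 7.83 and 7.35 in control leukemias. Its range of 1.19 was the smallest of the tested members, and Chd7f/f replicate 1 did not stand out in it.

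Igkv5-43 was read by 3 probe sets at unequal levels. The brightest, 17459421, was at 12.13, 9.59 and 10.66 in Chd7f/f and at 10.89, 11.97 and 10.42 in control leukemias, where Chd7f/f replicate 1 and control replicate 2 were nearly level. Probe set 17467489 was at 8.0 in Chd7f/f replicate 1 and 5.90 in control replicate 1, with the remaining 4 arrays no higher than 4.45. Probe set 17467483 peaked in Chd7f/f replicate 1 as well, at 6.38 against 2.88 to 4.37 elsewhere. The low kappa members Igkv6-23, Igkv8-19 and Igkv9-124 stayed between 2.70 and 4.54, near the bottom of the scale. Igkv6-14 was also low on average, yet reached 4.69 and 5.45 in Chd7f/f replicates 1 and 3 against 2.86 to 3.47 on the other arrays.

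The lambda segment Iglv1 was at 9.13, 5.79 and 6.42 in Chd7f/f and at 8.52, 7.11 and 5.19 in control leukemias. Both replicates numbered 1 were high and the order of the rest differed from that of kappa.

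Most members peaked in the same leukemia, while their lowest arrays were more mixed. Chd7f/f replicate 1 held the highest level of 20 of 29 members (69.0%), where 18.2% of all probe sets with 1 symbol peaked on that array. Chd7f/f replicate 2 held the lowest level of 11 members (37.9%), where 19.1% of all probe sets had their minimum. Over the 22 tested members the mean level relative to each member's own 6-array average was 1.54, -0.91 and -0.44 in Chd7f/f and 0.11, 0.29 and -0.59 in control leukemias. In this mean the Chd7f/f leukemias supplied both the highest and the lowest level.

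Constant segments and the mostly kappa variable segments moved together in this respect. The 8 tested constant probe sets averaged 1.24, -0.85 and -0.26 in Chd7f/f and 0.078, 0.54 and -0.76 in control leukemias, relative to their own averages. The 13 tested variable probe sets averaged 1.59, -0.94 and -0.49 in Chd7f/f and 0.18, 0.15 and -0.48 in control leukemias. Both classes were highest in Chd7f/f replicate 1 and lowest in Chd7f/f replicate 2, and constant probe sets stood higher than variable ones in control replicate 2. With the members below the filter included, the constant class averaged 1.24 and the variable class 1.27 in Chd7f/f replicate 1. In Chd7f/f replicate 2 they then averaged -0.81 and -0.76. Of the 13 tested variable probe sets, 11 were kappa. The 3 heavy variable probe sets, tested or not, averaged 0.21, -0.63 and 0.22 in Chd7f/f and 0.22, 0.37 and -0.38 in control leukemias. They were also lowest in Chd7f/f replicate 2, but highest in control replicate 2. Over all members, the genotype difference was 0.12 for the constant class and 0.15 for the variable class on the log2 scale, so the classes differed by -0.030, constant minus variable. Without control replicate 2 that value was 0.16, and without control replicate 3 it was -0.13. With 1 probe set per gene it was -0.18, and with array weights 0.026. The mean over all members itself had an SD of 1.11 between the Chd7f/f leukemias and of 0.38 between the controls.

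**Figure D2:**
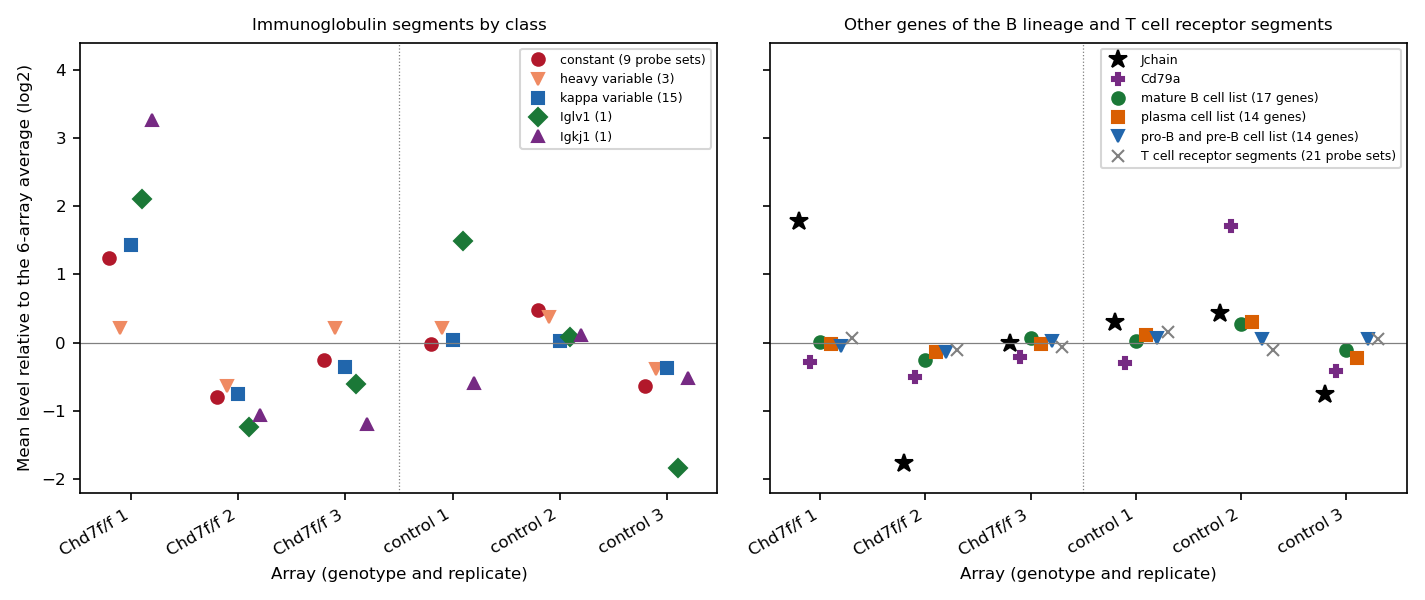
Mean level on each array relative to the average over the 6 arrays (log2), for immunoglobulin segments by class (left) and for Jchain, Cd79a, 3 lists of B-lineage genes and T cell receptor segments (right). Constant and kappa segments and Jchain are highest in Chd7f/f replicate 1 and lowest in Chd7f/f replicate 2, while the lists of B-lineage genes stay within 0.30 of their average and Cd79a is raised in control replicate 2 alone.

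The members varied far more between arrays than most probe sets. Their range over the 6 arrays had a median of 2.58 log2 units, and was at least 2 in 22 of 29 members (75.9%), where 4.43% of all probe sets reached 2 and the median range was 0.50. T cell receptor segments, the corresponding genes of T cells, served as a comparison, with 21 probe sets of 8 genes found by symbol. Their median range was 0.48 and no member had a range of 2. They were also dimmer, with a median level of 4.25 beside 7.03 for the immunoglobulin members, and the part of this in their range was not tested. The 11 of them above the filter had a median level of 5.39 and a median range of 0.43. The SD between the 3 Chd7f/f leukemias had a median over the tested members of 1.39, and that between the 3 control leukemias 0.79. Over all 29 members these medians were 1.19 and 0.55. The SD was larger in Chd7f/f for 16 of the 22 tested members. Over all tested probe sets the median SD was 0.20 between the Chd7f/f leukemias and 0.18 between the controls. The share of all tested probe sets with the larger SD in Chd7f/f was not counted. Without a test of the spread itself, these values describe these 6 arrays.

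A member counted as high in a single leukemia when its highest array was at least 1 log2 unit above the second. That held for 12 of 29 members (41.4%), where it held for 2.15% of all probe sets with 1 symbol. In 11 of the 12 the array was Chd7f/f replicate 1, and in 1, Igkv8-30, it was control replicate 3. How the probe sets outside the members that met the rule divide over the arrays was not counted. Chd7f/f replicate 1 also had the lowest array weight over the tested probe sets, 0.42 against 0.61 to 2.54 on the other arrays. No T cell receptor segment met the rule. At a gap of 0.5 the count was 20 and at a gap of 2 it was 6, and the shares of all probe sets at those gaps are not given here. The 11 were Igkj1, Ighm probe set 17284660, Igkv15-103, Igkv9-120, Igkv4-72, Igkv4-70, Igkv4-59, Igkv1-133, Igkv6-23 and the 2 dimmer probe sets of Igkv5-43.

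The kappa segments among them lay at several places of the measured locus. In the order of the 14 measured kappa genes along the locus in the RefSeq table of GRCm38.p6, the segments high in Chd7f/f replicate 1 began with the first, Igkv1-133, ended with Igkj1 at position 14 and took 9 places in all, among them the consecutive places 3 and 4 and 6 to 9. They also came from several V families, with numbers 1, 4, 5, 6, 9 and 15 in their names. Place 11 and family number 6 rest on Igkv6-23, which lay below the filter. It was at 4.39 in that leukemia, under the array median of 4.82. Apart from it, no V segment after Igkv5-43 at place 9 counted as high there. Chd7f/f replicate 1 was thus high in several kappa probe sets. A kappa probe set may also register RNA of related segments, so how many segments were transcribed there was not tested.

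Without Chd7f/f replicate 1 the count of members high in a single leukemia was 8 of 29, now spread over 4 leukemias. Control replicate 2 held Ighg3 probe set 17284344, Ighm probe set 17284360 and Igkv5-43 probe set 17459421. Control replicate 1 held Iglv1, Igkv9-124 and Igkv5-43 probe set 17467489. Control replicate 3 held Igkv8-30 and Chd7f/f replicate 3 held Igkv6-14. By this rule a probe set can stand out on 1 array only, so these leukemias could not share a probe set. Igkv9-124 and Igkv6-14 lay below the filter. The share of all probe sets that met the rule without Chd7f/f replicate 1 is not given here.

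Igkv8-30 departed most from the mean of the members. It was at 6.30, 4.64 and 4.19 in Chd7f/f leukemias and at 5.91, 5.53 and 8.06 in control leukemias. Control replicate 3, low in the other segments as a group, was 1.77 above the next array in it. The excess of a member on an array over its own average and over the mean shift of all 29 members there was 2.80 for Igkv8-30 in control replicate 3, the largest of all. The others with an excess of at least 1.5 were Igkj1 (1.93) and Igkv5-43 probe set 17467489 (1.51) in Chd7f/f replicate 1, Igkv6-14 (1.90) in Chd7f/f replicate 3 and Ighg3 probe set 17284344 (1.75) in control replicate 2. This measure was added after the values had been seen. A single clone would carry its own V segment above the rest, but the array measures 13 kappa V genes with a probe set of their own and does not read V to J joins, so clonality was not tested.

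**Figure D3:**
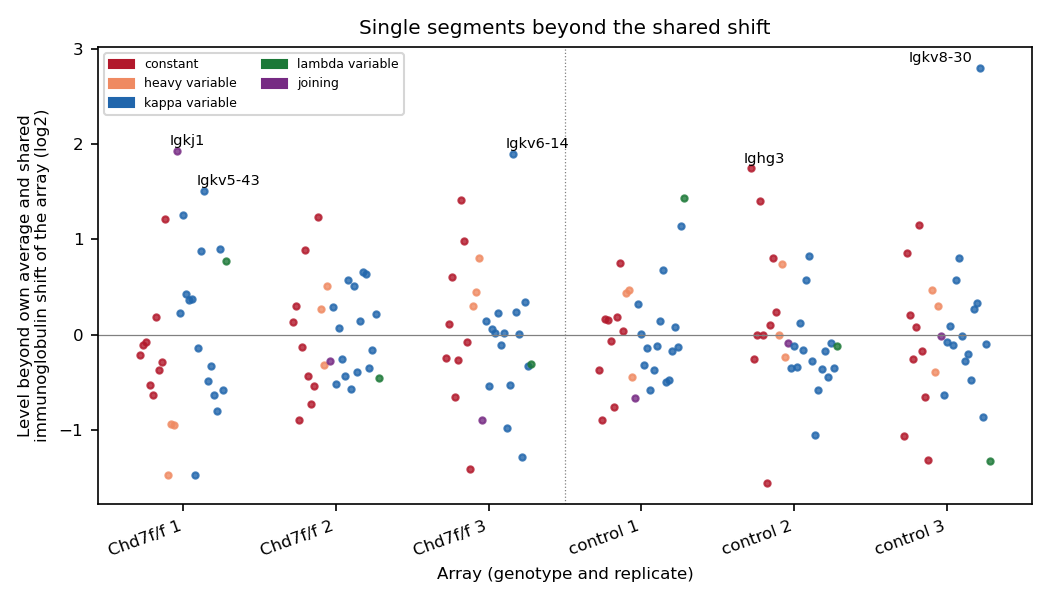
Level of each of the 29 members (points, colour by class) on each array after its own 6-array average and the mean shift of all members on that array are taken off (log2). Points at 1.5 or above are named; Igkv8-30 in control replicate 3, at 2.80, is the farthest.

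Between the genotypes no member differed beyond the spread of replicates. None of the 22 tested members passed an adjusted p of 0.05 (limma, adjusted p = 0.9998 for each), where 0% of the 16465 probe sets tested did. None had an unadjusted p under 0.05 either (limma, lowest 0.110), where 1.82% of all tested probe sets did. Nor were the 3 Chd7f/f values of any tested member all above or all below the control values, where 6.83% of tested probe sets were separated, 2.48% wholly higher and 4.35% wholly lower. Of the 7 members below the filter, Igkv6-23 alone had its Chd7f/f values above all controls, at 4.39, 3.25 and 3.31 against 2.97, 3.22 and 3.14, a separation of 0.03 at a level near the bottom of the scale. With 3 arrays a side, 0.1 is the smallest p that an exact permutation test (two-sided) allows.

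Of all 16465 tested probe sets, 7249 had a higher mean in Chd7f/f leukemias and 9216 a lower one. Among the 22 tested members 14 had a higher mean and 8 a lower one. Their median difference was 0.21, beside -0.025 over all tested probe sets. Dropping Chd7f/f replicate 1 made that median -0.60, dropping replicate 2 of that genotype 0.83 and dropping its replicate 3 0.46. It was 0.33 when control replicate 2 was dropped, -0.016 when control replicate 3 was dropped and -0.020 with array weights, so neither its sign nor its size was stable. Leaving out Chd7f/f replicate 1 turned the direction of 13 of the 22 members. The share of all tested probe sets that turned with it was not counted.

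The most positive difference of the tested members belonged to Ighm probe set 17284507, 0.94 (SE 0.84), with Chd7f/f leukemias at 9.08 ± 1.48 and controls at 8.14 ± 1.02 (SD, n = 3 each). Leaving out Chd7f/f replicate 1 made it 0.42, and leaving out replicate 2 of that genotype 1.78. Ighm probe set 17284360 went the other way at -0.71 (SE 0.73), with Chd7f/f at 10.26 ± 1.0 and controls at 10.97 ± 1.19 (SD, n = 3 each), and was -0.082 without control replicate 2. The brightest Ighm probe set, 17284349, differed by -0.085 (SE 0.72). The readings of this 1 gene therefore disagreed in sign, each within its error.

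Among variable segments Igkv9-120 differed by 0.88 (SE 0.85), with Chd7f/f at 8.52 ± 1.62 and controls at 7.64 ± 0.81 (SD, n = 3 each), and by -0.012 without Chd7f/f replicate 1. Igkv8-30 had the most negative value of the tested members, -1.46 (SE 0.82), with Chd7f/f at 5.04 ± 1.11 and controls at 6.50 ± 1.37 (SD, n = 3 each). It was -0.68 without control replicate 3, the array on which it was high, and -2.09 without Chd7f/f replicate 1. Igkv4-91, with the smallest unadjusted p of 0.110 (limma), differed by -0.52 (SE 0.28). Igkj1 differed by 0.67 (SE 1.19) and turned to -0.79 without Chd7f/f replicate 1. The remaining tested members lay between -0.44 and 0.86.

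**Figure D4:**
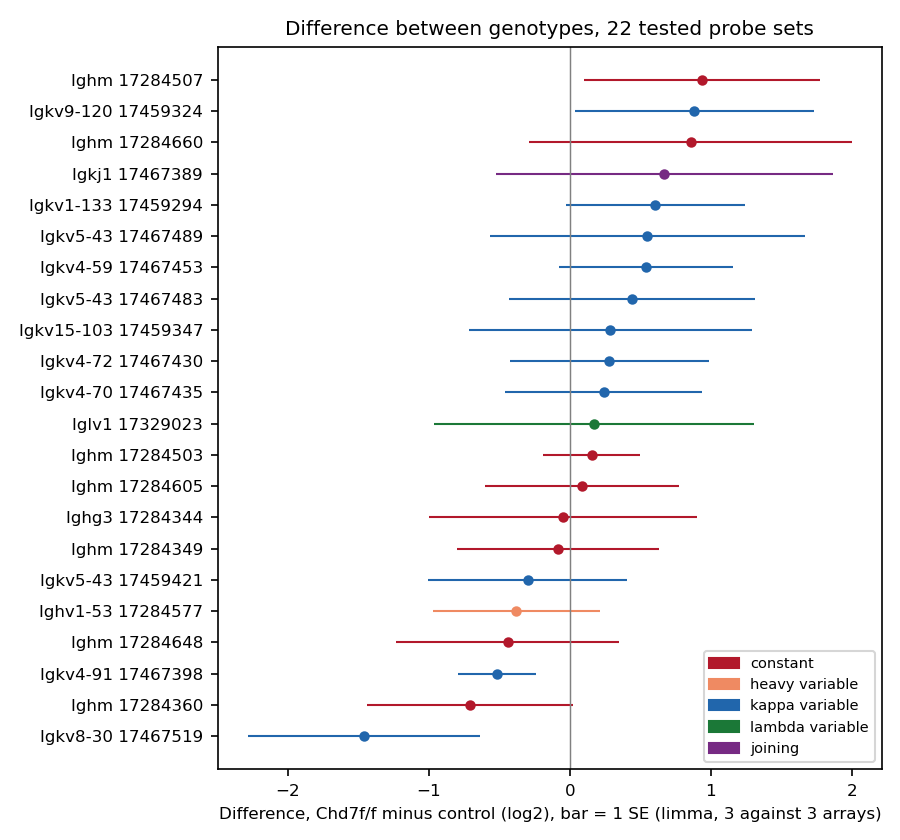
Difference between genotypes, Chd7f/f minus control (log2, points, bars 1 SE from limma), for the 22 tested probe sets in order, coloured by class. Values run from -1.46 for Igkv8-30 to 0.94 for Ighm probe set 17284507, with a median of 0.21 and no adjusted p below 0.9998.

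The genes that B cells need to display or secrete antibody were measured beside the segments. Jchain, which encodes the joining chain that links IgM or IgA units and is made by plasma cells, was at 8.60, 5.07 and 6.82 in Chd7f/f leukemias and at 7.13, 7.26 and 6.07 in control leukemias. Its arrays had the same order as the mean of the tested immunoglobulin members, from Chd7f/f replicate 1 through control replicates 2 and 1 to Chd7f/f replicate 3, control replicate 3 and Chd7f/f replicate 2. The genotypes did not differ in it, at 0.0097 (SE 0.88; limma, adjusted p = 0.9998).

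Of the 14 plasma cell genes, all tested, 5 lay below 5.78 on every array and 5 at or above it on every array. Tnfrsf17, the receptor BCMA of plasma cells, lay between 4.02 and 4.38, and Sdc1, the surface marker CD138, between 4.99 and 5.92. Mzb1, an antibody-folding cofactor, was at 5.54, 5.06 and 4.94 in Chd7f/f and at 5.28, 5.48 and 4.90 in control leukemias, so its 3 highest arrays were those of Jchain, in the same order and within a far narrower range. Only Jchain and Mzb1 of this list peaked in Chd7f/f replicate 1, and the other genes peaked elsewhere. Fkbp11 reached 6.25 in control replicate 2, with 4.59 to 4.92 elsewhere. Slamf7 reached 7.52 in control replicate 1, with 4.54 to 5.10 elsewhere. Xbp1, the secretory transcription factor that many cell types also use, was at 8.50, 9.04 and 9.37 in Chd7f/f and at 9.65, 9.90 and 8.90 in control leukemias, lowest where the segments were highest. The summed level of the list ran from 89.3 to 91.0 in Chd7f/f and from 88.2 to 95.4 in control leukemias. No member of it passed the adjusted test or had an unadjusted p under 0.05 (limma).

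Defining genes of mature B cells were low. Of 17 measured genes of that list 12 lay below 5.78 on every array. Ms4a1, which encodes CD20, lay between 3.57 and 3.95, Cd79b, a signalling partner of the antigen receptor, between 4.43 and 5.15, and Pax5, the factor that fixes B cell identity, between 4.64 and 4.79. Cd79a, the other signalling partner, was at 5.18, 4.97 and 5.26 in Chd7f/f and at 5.17, 7.18 and 5.06 in control leukemias, high in control replicate 2 alone. Tnfrsf13c, the BAFF receptor gene, likewise reached 7.99 in control replicate 2, with 6.32 to 6.40 elsewhere. That array was also the highest for Ighm probe set 17284360 and Ighg3 probe set 17284344. Cd37, a membrane protein gene of B and other blood cells, was at 10.44, 8.27 and 9.83 in Chd7f/f and at 10.35, 9.87 and 9.93 in control leukemias. Summed levels of the list were 82.4 to 87.9 in Chd7f/f and 84.8 to 91.3 in control leukemias.

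Most genes of B cell precursors, where the loci are being joined, were low as well. Igll1, Vpreb1, Vpreb2 and Vpreb3, which encode the surrogate light chain that stands in for kappa or lambda, all lay below 5.78 on every array, with Igll1 between 4.48 and 4.97 and Vpreb1 between 3.49 and 3.95. Rag2, a subunit of the recombinase that cuts the segments, lay between 3.14 and 3.29, and Dntt, which adds bases at the joins, between 3.59 and 3.64. Of the 14 measured genes of the precursor list 10 lay below 5.78 on every array, and its summed level was 62.9 to 65.1 in Chd7f/f and 65.4 to 65.7 in control leukemias. Erg, at or above that level on all arrays, and Sox4, at 7.95 in control replicate 1 and at most 4.13 elsewhere, are genes that stem cells and other progenitors share. Neither followed the order of the segments. Blnk, of the same list, reached 6.39 in control replicate 3, with 4.56 to 5.63 elsewhere, and Cd93 lay between 5.75 and 6.34. Whether the immunoglobulin RNA came from the leukemic cells or from B or plasma cells that passed the sort was not tested.

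Machinery around the segments was taken as 4 gene lists, read against the 1.82% of all tested probe sets at an unadjusted p under 0.05. Of all 16465 tested probe sets, 9216 were lower and 7249 higher in Chd7f/f leukemias. No tested gene of any list passed the adjusted threshold, and Xrcc5 and Vav2 are named after their values were seen. Of 16 tested genes of V(D)J recombination and class switching 14 were lower and 2 higher, with a median of -0.13, and 1 had an unadjusted p under 0.05 (limma), Xrcc5, a subunit of the Ku complex that binds broken ends. In B cell receptor signalling 1 of 19 did, the exchange factor gene Vav2, also lower, with a list median of 0.044. None of 18 did among the transcription factors of immunoglobulin loci, where 10 were higher and 8 lower with a median of 0.032. Among the receptors and transporters of antibodies 1 of 12 did, the inhibitory receptor gene Fcgr2b, 1.26 higher (SE 0.51; limma, adjusted p = 0.9998), with a list median of 0.25.

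Bcl6, a repressor of germinal centre B cells, was at 7.02, 4.14 and 4.83 in Chd7f/f and at 5.12, 5.07 and 4.72 in control leukemias, high and low in the same Chd7f/f leukemias as the segments. Prkcb, a kinase of antigen receptor signalling, reached 9.26 in control replicate 2, with 4.84 to 6.65 elsewhere, as Cd79a and Tnfrsf13c were. Both are named for the width of their range and not for a difference between genotypes.

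Close to the members, 7 probe sets stood outside the rule. Of these, 5 name several genes, of which at least 1 is a segment, and their levels ran from 8.20 to 12.70. In 4 of the 5 the highest array was Chd7f/f replicate 1, and in all 5 the lowest was Chd7f/f replicate 2. The brightest of them, 17459423, annotated to Igkv4-53, Igkj1 and Igkv6-23, was at 12.70, 10.57 and 11.94 in Chd7f/f and at 11.82, 12.19 and 11.48 in control leukemias. The other two carry the older name Igh-VS107, and also had their highest level in Chd7f/f replicate 1 and their lowest in Chd7f/f replicate 2, 8.45 and 5.83 in one and 9.11 and 4.69 in the other.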

How the data were processed

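Total RNA of 6 sorted samples was measured, 1 array each. The authors deposited log2 levels per probe set. The submitters' processing notes name RMA and Affymetrix Expression Console, without versions. RMA subtracts background, gives all arrays 1 distribution and summarises probes, so a difference in total signal is not visible. Of 41345 probe sets, 23521 carried 1 gene symbol, 1814 carried more than 1 and for 16010 no symbol was listed. Symbols were updated by Entrez identifier from RefSeq (GRCm38.p6), where all 29 members were found.

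Probe sets with 1 symbol whose mean reached the 30th percentile (16465) entered a linear model on genotype alone, fitted by limma 3.58.1 (R 4.3.3; eBayes with a constant prior), and p-values were adjusted by Benjamini-Hochberg over the 16465. Members were tested as single probe sets. For the other lists the probe set with the highest mean stood for a gene. The fit was tested on simulated data. The rule for named genes took every constant and joining member and variable members by gap, p or level. It also took list genes with a range of at least 2 log2 units and a few set markers of the B lineage. Other list genes, among them Mzb1, Xbp1, Tnfrsf13c, Tnfrsf17, Pax5, Rag2 and Dntt, were named outside this rule with the values at hand. Members and lists were chosen with earlier results of these data known. Replicate numbers did not pair samples. Alternatives were other normalizations, filters and priors, array weights, 1 probe set per gene, a replicate block and leaving out each array. Plots were drawn with matplotlib 3.10.9.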

Additional observations from a re-analysis of the deposited data

How the results depend on the processing

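Without detection calls, levels near the array medians cannot be told from background, and 3 arrays per genotype limit every difference. No member passed an adjusted p of 0.05 under any alternative (limma, lowest adjusted p 0.989). Members at an unadjusted p under 0.05 numbered 0 in the reported fit, 2 with array weights (Igkv4-91 and Igkv8-30) and 0 to 3 when arrays were left out in turn. The 3 were Igkj1, Igkv15-103 and Igkv8-30, each lower in Chd7f/f, without Chd7f/f replicate 1. The cause was not tested. Over all probe sets the unadjusted count of 300 was 565 without a filter (more probe sets tested), 166 with the filter at the 50th percentile (fewer tested), 601 with array weights, 343 with the replicate block and 284 to 553 without single arrays, the last without control replicate 2. Same-numbered samples deviated from their group means with correlations of 0.013, -0.037 and 0.039, and the block left the member count at 0. The 12 members high on a single array became 20 at a gap of 0.5, 6 at a gap of 2 and 8 to 14 without single arrays. The matching shares of all probe sets are not given here. Other normalizations, filters, the prior, 1 probe set per gene and the replicate block turned no direction of the members they tested. Array weights turned 8, giving 0.0095 for Ighg3 probe set 17284344, -0.088 for Ighm probe set 17284503, 0.017 for Ighv1-53, -0.32 for Igkj1, -0.30 for Igkv15-103, -0.105 for Igkv4-72, and -0.24 and -0.035 for Igkv5-43 probe sets 17467483 and 17467489. Leaving out single arrays kept the direction of 4 members and turned that of 18 at least once (share of all probe sets not counted). Their differences then ran from -0.85 to 0.91 for Ighg3 probe set 17284344, and for Ighm from -0.735 to 0.73 (17284349), -0.16 to 0.48 (17284503), -0.37 to 0.86 (17284605), -1.13 to 0.11 (17284648) and -0.21 to 1.93 (17284660). They ran from -0.93 to 0.078 for Ighv1-53, -0.79 to 1.44 for Igkj1, -0.84 to 0.96 for Iglv1, -0.023 to 1.0 for Igkv1-133, -0.93 to 1.01 for Igkv15-103, -0.21 to 1.03 for Igkv4-59, -0.55 to 0.82 for Igkv4-70, -0.51 to 0.96 for Igkv4-72 and -0.012 to 1.575 for Igkv9-120. For Igkv5-43 they ran from -0.97 to 0.30 (17459421), -0.56 to 1.19 (17467483) and -0.73 to 1.28 (17467489). The trended and robust prior leaves the median difference as it is and was not run for it.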

Other observations

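Among genes of other cells, Cd34, a surface marker of stem and progenitor cells, was at 9.47, 5.61 and 6.87 in Chd7f/f and at 6.05, 7.64 and 5.77 in control leukemias, with the top and the bottom in the same Chd7f/f leukemias as the immunoglobulin segments. Meis1, a homeobox gene of progenitors, was at 9.77, 8.98 and 9.07 in Chd7f/f and at 6.98, 9.13 and 10.24 in control leukemias, in another order. Control replicate 1 was highest for Slc4a1, the anion exchanger of red cells, at 11.47, for Tfrc, the transferrin receptor gene, at 11.06, and for Slamf7, a surface receptor of plasma and other immune cells, at 7.52. Chd7f/f replicate 3 was highest for the myeloid genes Lyz2 at 8.61, Csf1r at 8.19, Ctss at 8.32, Ly86 at 7.43, Ms4a6c at 7.05 and Ngp at 7.21. Exo1, a DNA repair nuclease gene, was lowest in Chd7f/f replicate 1, at 6.02 against 7.65 to 8.74 elsewhere. Fcer1g, a signalling subunit of antibody receptors, ranged from 9.81 to 11.14 in Chd7f/f and from 9.52 to 11.77 in control leukemias.

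No gene of the T cell, NK cell, monocyte, neutrophil, erythroid, plasmacytoid dendritic cell or progenitor lists passed the adjusted test (limma). Of these, 1 monocyte gene, Mpeg1, named after its values were seen, had an unadjusted p under 0.05, and 10 of the 11 monocyte genes had a higher mean in Chd7f/f leukemias, with a median difference of 0.60. Over all 16465 tested probe sets 1.82% had such a p and 7249 had a higher mean. The monocyte list stood highest in Chd7f/f replicate 3, with shifts of 0.18, -0.24 and 0.92 from its average in Chd7f/f and of -0.28, 0.062 and -0.65 in control leukemias. The list medians were -0.0088 for T cell genes, 0.012 for NK cell genes, 0.25 for neutrophil genes, -0.16 for erythroid genes, 0.039 for plasmacytoid dendritic cell genes and 0.15 for progenitor genes.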
